A study of Mus musculus with 4 samples.

Results

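The retinas of control mice, sampled on day 5 and on day 1, were compared gene by gene over the autosomal gene symbols of the deposited files. Symbols on the X and Y chromosomes and the small RNA symbols beginning Mir, Snor or Scarna were left out, and 20877 of the 22558 symbols in the control files met this rule. Of these, 20851 had a value in both control libraries, and 8771 reached 5 FPKM in at least 1 of them. FPKM counts fragments relative to transcript length and library size and is a level per length, so it can be compared between genes.

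The control mice had the genotype +/+; R26R-DTA/+, that is, an allele for the diphtheria toxin fragment DTA behind a stop that only Cre recombinase removes, and no Cre. The injured mice of the same series had the genotype Msi1-CreERT2/+; R26R-DTA/+, in which a ligand-dependent Cre under the Msi1 locus switches the toxin on. All mice were about 8 weeks old, on a mixed C57BL/6 and 129 background, and were labelled day 1 or day 5 after injury. Each of the 4 groups was 1 library of whole retina. The sources used here do not give whether the controls received the ligand or how many mice went into a library, and no difference below has a replicate check.

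The retina is a sheet of neurons with rods as its most numerous cells, cones, bipolar, amacrine, horizontal and ganglion cells, and Müller glia that span its depth. Behind it lies the retinal pigment epithelium, which renews the visual chromophore, and in front of it lie the vitreous, the ciliary body and the lens, whose fibre cells are packed with crystallins. A dissection of the retina can carry over pieces of these neighbours, and their transcripts are then read together with those of the retina. In whole tissue, fewer cells of a type and less RNA per cell cannot be told apart.

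Most genes of the control retina stood at similar levels in both libraries. Across the 8771 genes at 5 FPKM or more, log2(FPKM + 1) in one library followed that in the other with a Pearson r of 0.97 across genes, which are not independent replicates. The difference was taken throughout as log2(FPKM + 1) on day 5 minus day 1. Over these genes the difference had a median of -0.06, with the 5th percentile at -0.47 and the 95th at 0.27. Of these genes 60.7% were below 0, a share that holds for genes at 5 FPKM or more. Unless stated, the counts of signs given for each list run over every measured member, also under 5 FPKM. Over all measured genes the share below 0 was smaller, so 60.7% is not the background for lists mostly under 5 FPKM. A gene was called higher or lower where the difference was at least 1 in size and the gene reached 5 FPKM in either library. By this rule 76 genes (0.866%) were called, 10 of them higher on day 5 (0.114%) and 66 lower (0.752%). Of the 66 genes lower on day 5, 32 stood in lists of neighbouring tissues or of blood and vessels. Of these 32, 20 stood in the lens lists and 6 in the pigment lists. The ciliary body and vitreous, the sclera and stroma, and the red blood cell lists held 2 each. Of all 8771 genes, 22 stood in the lens lists and 13 in the pigment lists. The ciliary body and vitreous list held 8, the sclera and stroma list 4, and the red blood cell list 3. The endothelium and pericyte list held 7, of which none was called lower. The lists were chosen with earlier results of these data known, so these counts are a description only.

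**Figure D1:**
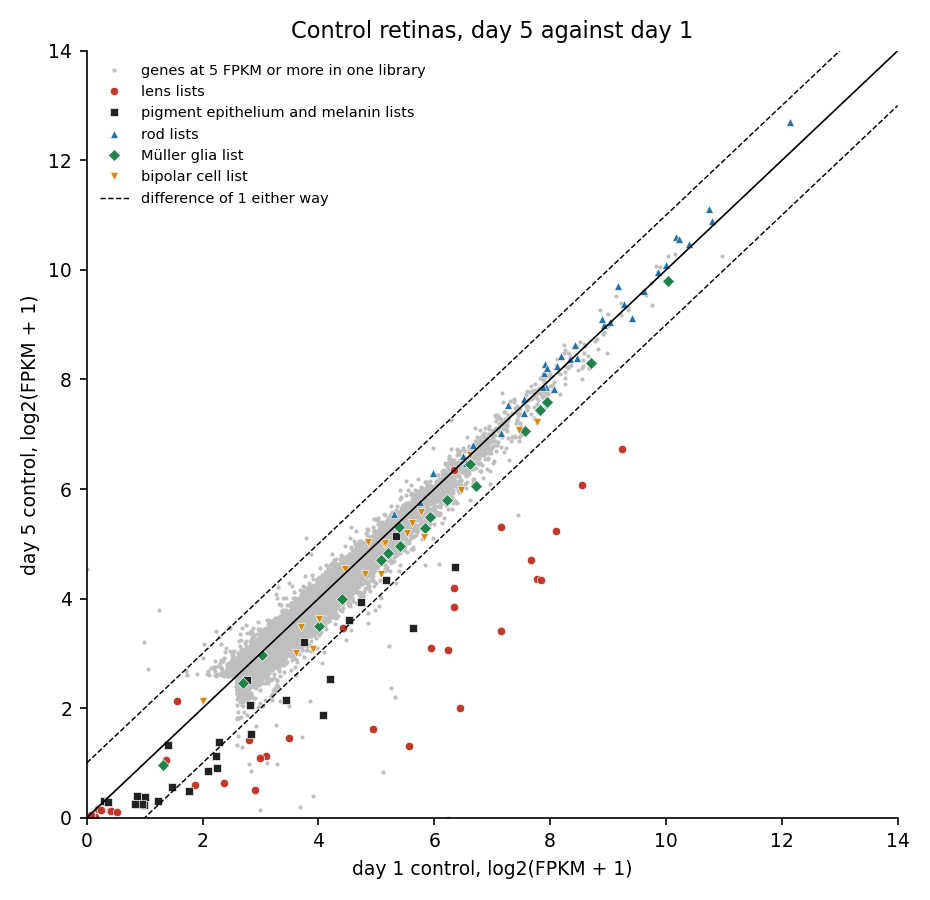
Level of each gene at 5 FPKM or more in either library, and of every member of the named lists, in the day 1 control (x axis) and the day 5 control (y axis), both as log2(FPKM + 1) with 1 library each; the dashed lines mark a difference of 1. Most members of the lens lists (circles) and of the pigment lists (squares) lie below the diagonal, while the rod, Müller glia and bipolar cell lists stay between the dashed lines.

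The level estimates of the day 1 library rest on more fragments. From the smallest steps of FPKM times transcript length, about 72.3 M fragments were estimated for day 1 and 34.9 M for day 5, so that 1 fragment on a transcript of 1 kilobase is worth 0.0138 and 0.0287 FPKM. The deposited intervals had a median half-width of 4.89% of the FPKM on day 1 and 6.64% on day 5 for lines at 5 FPKM or more. They cover no spread between mice, and in 17.8% and 10.3% of lines the upper bound lay below the FPKM itself. The 2 libraries also differed in sex-linked genes, which the rule leaves out: Ddx3y, on the Y chromosome, was at 15.6 FPKM on day 1 and 0.175 on day 5, while Xist, which is transcribed from the inactive X, was at 0.00596 and 53.7 FPKM. The sex of the mice and the day therefore cannot be told apart in any difference given here.

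The crystallins, the soluble proteins that give the lens its refractive power, held many of the largest differences, and their size followed the crystallin class. Of the 8 gamma crystallins 7 were lower on day 5 by the size rule, as were all 6 beta and both alpha crystallins. The gamma crystallins called were lower by 8.09-fold to 31.2-fold with a median of 14.3-fold, the beta crystallins by 4.62-fold to 10.1-fold with a median of 6.67-fold, and the alpha crystallins by 3.67-fold and 5.76-fold. The lens lists together had a median difference of -1.97 over 33 measured members, against -0.06 over all genes at 5 FPKM or more. Their transcripts made up 1.06% of the summed FPKM of the day 1 control and 0.187% of that of the day 5 control.

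Cryge, a gamma crystallin of lens fibres, stood at 85.8 FPKM on day 1 and 3.02 on day 5, a difference of -4.43. Crygf was at 46.6 and 1.49 FPKM, Crygd at 141 and 9.64, and Cryga at 29.7 and 2.07. Crygc, at 227 and 19.1 FPKM, and Crygb, at 216 and 19.5, were the most abundant of this cluster in both libraries. Crygs, a gamma crystallin encoded elsewhere, on chromosome 16, was at 203 and 25.1 FPKM. Every one of these 7 genes was higher on day 1, and the order of Crygc and Crygb against Cryga and Crygf held on both days. The eighth, Crygn, did not reach 5 FPKM in either library and so could not be called, with a difference of -1.28.

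The genes Cryga to Crygf lie together on mouse chromosome 1 (build mm9), from Cryge at chr1:65095131-65097737 through Crygd at chr1:65108412-65110014, Crygc at chr1:65118106-65120095 and Crygb at chr1:65126801-65128841 to Cryga at chr1:65146963-65149937, with Crygf apart at chr1:65973096-65974878. All 6 were lower on day 5, and their promoters are shown because they share the same core. The stretches below come from RefSeq promoters (build GRCm38.p6), each read on the strand of its gene, and the capitals mark the TATATA box.
Cryga: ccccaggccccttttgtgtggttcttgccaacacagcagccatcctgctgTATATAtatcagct
Crygb: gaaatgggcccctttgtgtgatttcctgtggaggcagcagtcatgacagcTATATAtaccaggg
Crygc: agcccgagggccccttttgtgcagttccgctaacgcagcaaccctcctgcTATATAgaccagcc
Crygd: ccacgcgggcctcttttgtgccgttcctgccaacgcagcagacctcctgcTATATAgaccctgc
Cryge: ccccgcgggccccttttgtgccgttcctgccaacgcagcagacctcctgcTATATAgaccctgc
Crygf: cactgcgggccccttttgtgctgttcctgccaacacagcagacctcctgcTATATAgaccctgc
In the same build the Cryge stretch is chr1:65051168-65051231 on the minus strand and the Crygf stretch chr1:65926440-65926503 on the plus strand. TATATA, searched on both strands, was found in the promoters of 6 of these 6 genes and of 6.66% of the 27025 symbols with a promoter of the same length. The letters TGCTGA, the core of the half-site of Maf factors, which drive crystallin genes in the lens, were found on either strand in 2 of these 6 genes, in 10 of the 15 crystallins with a promoter in the table, and in 21.7% of all symbols. These matches are descriptions of sequence and say nothing of binding.

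The near-identity of these genes limits how far single members can be read. Between Cryge and Crygf 98.1% of the 525 coding bases were the same, with a longest identical run of 134 bases, and between Crygd and Cryge 91.6% with a run of 153 bases. Crygb and Crygc shared a run of 221 bases. The opening 90 coding bases of 3 of the genes (GENCODE M1) are given here because they show it, and capitals mark bases that differ from Cryge.
Cryge: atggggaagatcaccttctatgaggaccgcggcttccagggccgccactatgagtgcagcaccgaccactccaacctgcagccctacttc
Crygf: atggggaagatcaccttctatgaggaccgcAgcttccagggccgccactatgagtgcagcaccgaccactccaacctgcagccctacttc
Cryga: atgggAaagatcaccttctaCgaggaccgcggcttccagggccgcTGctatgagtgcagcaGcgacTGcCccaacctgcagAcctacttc
Crygf differed from Cryge at 1 of these 90 bases and Cryga at 9. The sources used here do not say how the authors' processing divided fragments among such copies, so the sum over the 7 called gamma crystallins, 950 FPKM on day 1 and 80.0 FPKM on day 5, is firmer than the value of any member.

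Among the beta crystallins, which form oligomers in the fibre cell, Crybb2 was the most abundant, with 374 FPKM on day 1 and 66.4 on day 5. Cryba1 was at 273 and 36.7 FPKM, Cryba2 at 80.2 and 17.4, and Cryba4 at 79.6 and 13.47. Crybb3, at 74.6 and 7.38 FPKM, had the largest difference of this class, -3.17, and Crybb1 stood at 60.6 and 7.53. Cryaa, the lens chaperone, was the most abundant crystallin of all, at 604 and 105 FPKM. Cryab, a small heat shock protein made in many tissues besides the lens, was at 141 and 38.5 FPKM and had the smallest difference of the crystallins called, -1.85.

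The membrane and cytoskeleton genes of lens fibres moved the same way at much lower levels. Of 12 such genes all 12 had a difference below 0, and 5 were called lower. Lim2, a fibre membrane protein, was at 6.47 FPKM on day 1 and 0.423 on day 5. Bfsp1 and Bfsp2, the 2 proteins of the beaded filament that is particular to lens fibres, were at 7.59 and 6.96 FPKM on day 1 and at 1.20 and 1.12 on day 5. Lgsn, a lens protein of the glutamine synthetase family, was at 10.2 and 1.76 FPKM, and Grifin, a lens galectin, at 5.96 and 1.67. Mip, the major water channel of fibre cells, stood at 4.18 and 0.552 FPKM and was under the 5 FPKM that a call needs. Of the 5 lens transcription and RNA factors none was called, but only 1 of them, Tdrd7, reached 5 FPKM, so the others could not be. Tdrd7, which is needed for lens clarity, was at 79.9 and 80.2 FPKM, and Hsf4 at 1.96 and 3.38.

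The lens transcripts of the control retinas can be set beside those of the injured retinas, which were dissected from other mice. The day 1 DTA file used here holds 5799 symbols, so that 9 of the 20 called lens genes have a value in it. The 6 gamma crystallins of chromosome 1 were between 134 FPKM (Cryga) and 520 FPKM (Crygb) in the day 1 DTA library, and Cryba1 was at 264 FPKM. In the day 5 DTA library the 7 called gamma crystallins summed to 3.86 FPKM and the 6 beta crystallins to 10.04 FPKM, beside 80.0 and 149 FPKM in the day 5 control. Among the crystallins with a value in all 4 libraries, both day 1 libraries thus held more than both day 5 libraries, and the day 5 control lay between. Cryab was nearly level on day 5, at 38.5 FPKM in the control and 30.5 in the DTA library. The amount of lens carried over at dissection was not measured, and its part in the difference between days was not tested.

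**Figure D2:**
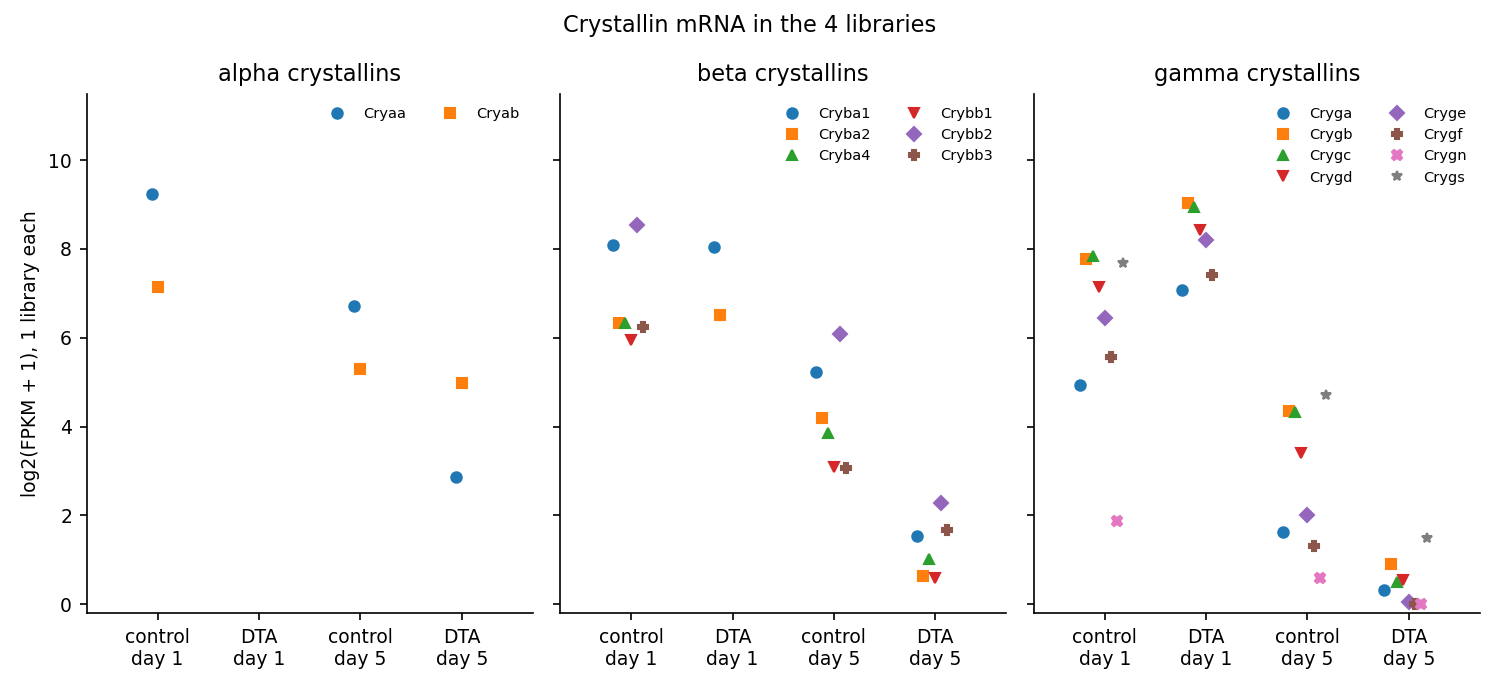
Level of each crystallin gene in the 4 libraries, as log2(FPKM + 1) with 1 library per column, by crystallin class; genes without a point in the day 1 DTA column are not in that file as used here. Among the genes with a value, every beta and gamma crystallin is highest in a day 1 library and lowest in the day 5 DTA library, with the day 5 control between.

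Genes of the retinal pigment epithelium were also lower on day 5. Of the 18 genes of this list 5 were called lower and 17 had a difference below 0, with a median of -0.92, and all 10 measured melanin genes were below 0, with a median of -0.64 and 1 called. Rgr, an opsin-like protein that helps to regenerate chromophore, was at 48.7 FPKM on day 1 and 10.1 on day 5. Rpe65, the isomerase of the visual cycle, was at 16.0 and 2.69 FPKM, and Rdh5, the retinol dehydrogenase that acts after it, at 17.5 and 4.83. Lrat, which makes the substrate of Rpe65, followed at 2.41 and 0.407 FPKM, too low for a call. These 4 genes of the visual cycle were each higher on day 1 than on day 5.

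Ttr, which carries thyroid hormone and retinol, was at 80.6 and 22.9 FPKM, and Slc16a8, the lactate transporter of the pigment epithelium, at 6.16 and 1.88. Enpp2, Trpm3 and Efemp1, at 22.1, 35 and 25.7 FPKM on day 1 and at 11.3, 19.4 and 14.4 on day 5, stayed under the size of a call, with differences from -0.92 to -0.79. In the pigment pathway Dct was called lower, with 9.79 and 3.43 FPKM. Tyrp1, at 3.68 and 1.20 FPKM, and Pmel, which forms the fibrils on which melanin is laid down, at 3.87 and 1.60, were under 5 FPKM. Tyr, the enzyme that starts melanin synthesis, was below 1 FPKM in both libraries, at 0.826 and 0.315. Pigment transcripts were thus low in absolute terms on both days: the melanin genes summed to 29.4 FPKM on day 1 and 13.8 on day 5.

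Promoters of the melanin genes are shown for the letters they share, TCATGTG, the core of the M-box that the pigment cell factor Mitf binds. Of the 6 melanin genes with a promoter in the RefSeq table (GRCm38.p6), 4 held these letters on one strand or the other, against 4.31% of all 27025 symbols. The M-box letters are in capitals, and the Slc24a5 stretch is written on the strand opposite to its gene.
Tyr: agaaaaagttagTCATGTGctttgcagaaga
Tyrp1: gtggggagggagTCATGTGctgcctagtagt
Dct: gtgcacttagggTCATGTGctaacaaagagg
Slc24a5: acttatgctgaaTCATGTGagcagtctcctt
Their places are chr7:87493516-87493546 for Tyr, chr4:80834154-80834184 for Tyrp1, chr14:118052379-118052409 for Dct and chr2:125068102-125068132 for Slc24a5. Slc24a5, an ion exchanger of the melanosome, was nearly level at 5.77 FPKM on day 1 and 4.70 on day 5, and Mitf itself was at 1.64 and 1.5 FPKM, so the shared letters did not go with a common size of difference.

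A further set of genes was high in the day 1 control alone. Optc, the vitreous proteoglycan opticin made by the ciliary body (chr1:135793771-135804576, mm9), was at 33.5 FPKM on day 1 and 0.795 on day 5, and at 0.974 and 1.11 FPKM in the day 1 and day 5 DTA libraries. Gpx3, a secreted glutathione peroxidase, was at 39.0 FPKM on day 1 and 3.6 on day 5, and at 3.17 and 2.61 FPKM in the 2 DTA libraries. Gja1, the gap junction protein connexin 43, was at 8.79, 0.976, 1.24 and 1.17 FPKM in the same order. The day 1 control stood apart for each of these 3 genes, and the 3 other libraries lay close together. For these genes the comparison of the controls and that of the day 1 libraries share the high value of the day 1 control.

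Some genes of connective tissue and of the extracellular matrix had the same pattern. Mfap4, a microfibril-associated protein, was at 6.99 FPKM in the day 1 control and at most 0.180 in the other 3 libraries. Col18a1, a basement membrane collagen, was at 13.4 FPKM on day 1 and 3.39 on day 5, and at 3.71 and 3.98 in the DTA libraries. Fmod, a collagen-binding proteoglycan, was at 8.66 FPKM on day 1 and 2.22 on day 5, and at 1.66 and 2.95 in the DTA libraries. In the matrix and coagulation list, to which Col18a1 belongs, 14 of 22 genes were below 0 with a median of -0.11. The other gene of that list called lower, Timp3, an inhibitor of matrix proteases, was at 32.8 FPKM on day 1 and 15.1 on day 5, and at 34.5 and 16.7 in the DTA libraries, so that it was high in both day 1 libraries. A further 2 called genes have no value in the day 1 DTA file used here, so their level there is not known. Fbln1, the matrix glycoprotein fibulin 1, had a difference of -3.51, with 14 FPKM on day 1 and 0.315 on day 5. Penk, the precursor of the enkephalin peptides, was at 37.3 and 4.20 FPKM. Crhbp, which binds corticotropin-releasing hormone, was at 12.1 FPKM on day 1 and 1.78 on day 5, and at 2.18 and 1.38 in the DTA libraries.

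These genes did not all follow the lens. The 6 gamma and 2 beta crystallins with a value in the day 1 DTA library were high in both day 1 libraries. The alpha crystallins have no value there. Optc, Gpx3, Gja1, Mfap4, Col18a1, Fmod and Crhbp were low in the day 1 DTA library too. Rgr and Rdh5, of the pigment epithelium, were at 29.3 and 10.9 FPKM in the day 1 DTA library and were therefore nearer to the lens pattern. Ptgds, which makes prostaglandin D2 and was singled out after its values were seen, was at 174 FPKM on day 1 and 45.1 on day 5. The ciliary body and vitreous list as a whole had 11 of 12 measured members below 0 and a median of -0.69, with Aqp1, a water channel, the exception at 41.4 and 55.7 FPKM. In the sclera and stroma list 15 of 21 members were below 0 with a median of -0.13, and in the cornea and conjunctiva list none of 11 reached 5 FPKM.

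**Figure D3:**
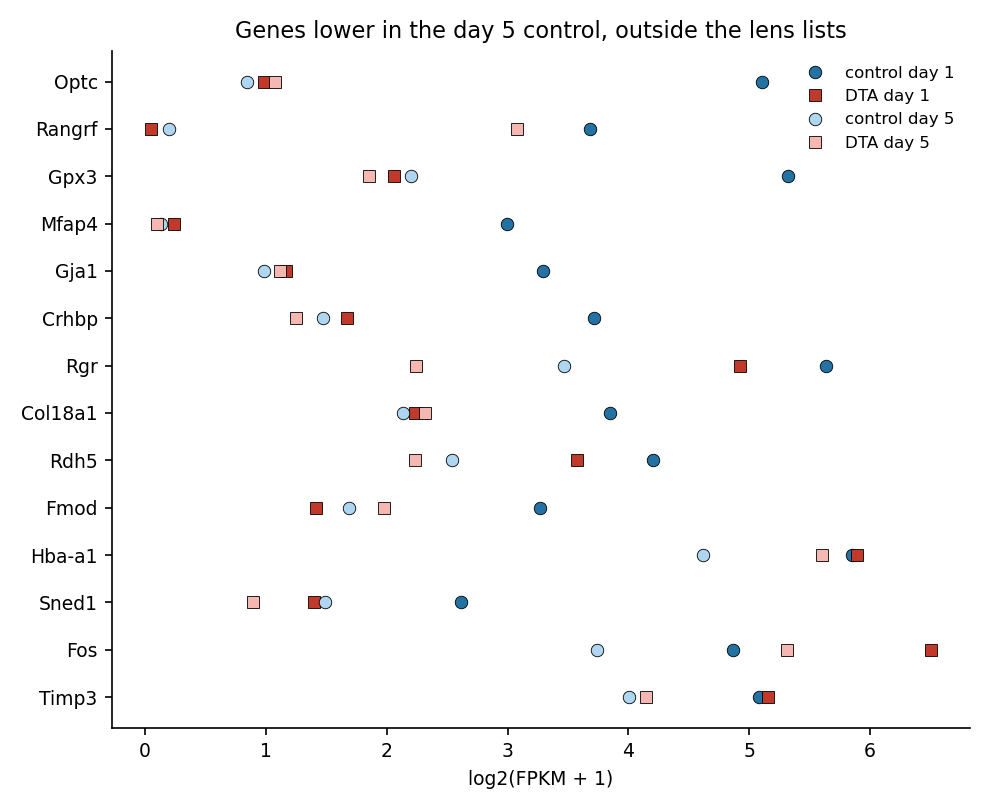
Level in each of the 4 libraries, as log2(FPKM + 1), of 14 protein-coding genes outside the lens lists that were lower in the day 5 control and have a value in the day 1 DTA file; genes are ordered by the difference between the controls, largest at the top. Optc, Gpx3, Mfap4 and Gja1 are high in the day 1 control only, while Rgr and Rdh5 are high in both day 1 libraries.

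Globin genes were lower on day 5, while vessel genes were mixed. Hba-a1, an alpha globin of red blood cells, was at 56.5 FPKM on day 1 and 23.6 on day 5, and Hbb-b1, a beta globin, at 10.2 and 3.12. The loci of both globins overlap those of near-identical neighbours in the files, so their split between copies is uncertain. Of the 18 endothelium and pericyte genes 15 had a difference above 0, with a median of 0.24. Only 7 of the 18 reached 5 FPKM, and 3 of these were below 0, with a median of 0.17. Summed over the list, the level was 148 FPKM on day 1 and 145 on day 5. Rgs5, a marker of pericytes, was called higher, with 3.06 and 8.04 FPKM. Cldn5, a tight junction protein of vessels, was at 3.44 and 5.61 FPKM, Pecam1 at 1.38 and 2.17, and Kdr, a receptor for vascular endothelial growth factor that is also made by retinal neurons, at 38 and 27.7. No leukocyte gene of 11 measured reached 5 FPKM in either library.

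Only 10 genes were higher on day 5. Bc1, a short cytoplasmic RNA of neurons made by RNA polymerase III, was listed at 0 on day 1 and at 22.4 FPKM on day 5. Its listed locus overlaps 2 other symbols, among them Tshr, its deposited upper bound on day 5 was only 2.55 FPKM, and its call is lost where the deposited intervals must not overlap. It was at 9.97 and 6.95 FPKM in the DTA libraries. Sap25, a subunit of a histone deacetylase complex whose locus overlaps a read-through symbol, was at 0.994 and 8.21 FPKM, and Pisd-ps3, a pseudogene within a family of copies, at 1.38 and 12.9. Gdpd3, a phosphodiesterase of lipids, was at 1.08 and 5.54 FPKM, and Hddc3, a phosphohydrolase, at 12.9 and 33.4. Iqgap1, a scaffold protein of the actin cytoskeleton whose locus on chromosome 7 lies within 1 Mb of that of Hddc3, was at 3.69 and 9.63 FPKM. Hdc, the enzyme that makes histamine, was at 4.47 and 10.1 FPKM, with 0.734 FPKM in the day 5 DTA library. The other two called higher were Pisd-ps2, at 4.52 and 10.1 FPKM, and an uncharacterised transcript with a clone name. All of them except Hddc3 were below 5 FPKM on day 1.

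The rules of size separate some close neighbours. Rorb, at 32.5 and 15.6 FPKM on day 1 and day 5, and Anxa1, at 11.2 and 5.07, were just inside with differences of -1.01 each. Neither kept its call with the GC trend removed or under another scaling of day 5, where Anxa1 was at -0.96 and -0.94. Lenep, a lens epithelium gene at 20.5 and 10.03 FPKM, and Rarres2, at 8.66 and 3.97, were just outside with -0.96 each. On the other side Pisd-ps2 and Hdc were just inside with 1.01 and 1.02, and Rmrp, the RNA of a ribonuclease at 2.29 and 5.43 FPKM, was just outside with 0.97 and passed under either scaling, at 1.02 and 1.03. Of the 76 called genes, 10 have clone or gene-model names, and 19 (25%) have a locus that overlaps another symbol, as against 16.8% of all genes at 5 FPKM or more.

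In the retina proper, 12 of the 25 most abundant genes stood in the rod lists, and none of the 25 was called. Gnat1, the alpha subunit of rod transducin, was at 4490 FPKM on day 1 and 6678 on day 5, and was the highest gene in both libraries. Pde6g, the inhibitory subunit of the rod phosphodiesterase, was at 1709 and 2224 FPKM, and Sag, the arrestin of rods, at 1149 and 1559. Gnb1, the beta subunit of transducin, was at 1198 and 1519 FPKM. All 4 were somewhat higher on day 5, by differences from 0.34 to 0.57. Pdc, phosducin, which binds the beta and gamma subunits of transducin, went the other way with 2003 and 1221 FPKM and a difference of -0.71, and Gngt1, the gamma subunit, was at 683 and 554.

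Genes of the rod outer segment and of rod transcription had a median difference of 0.09, near the 0.11 of the phototransduction genes. Prph2 and Rom1, the tetraspanins of the disc rim, were at 1772 and 1340 FPKM on day 1 and at 1910 and 1426 on day 5. Nrl, the transcription factor of rod fate, was at 783 and 780 FPKM, and Nr2e3, its target, at 244 and 295. Over both rod lists 27 of 36 measured genes were above 0 and none was called, with a median of 0.11. The share of summed FPKM held by the rod lists was 8.32% on day 1 and 10.4% on day 5. Of 13 cone genes 8 were above 0 with a median of 0.09, and Opn1sw, the short-wavelength opsin, was at 157 and 195 FPKM.

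Müller glia transcripts were lower on day 5 throughout, by less than a call. All 19 measured genes of the list had a difference below 0, and none was called, with a range from -0.67 to -0.06 and a median of -0.40. Rlbp1, which carries the visual chromophore within the glia, was at 189 FPKM on day 1 and 133 on day 5. Slc1a3, the glutamate transporter, was at 56.3 and 38.3 FPKM, and Kcnj10, the potassium channel of the end feet, at 20.3 and 15.0. Sox2, a transcription factor kept on in adult glia, was at 15.2 and 10.4 FPKM. Glul, glutamine synthetase, was at 1044 and 888 FPKM and was the most abundant gene of the list. Each of these 5 differences lay between the 1st and the 25th percentile of all genes, which were -0.82 and -0.21.

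Bipolar cell transcripts followed a similar course, with 15 of 19 below 0, none called and a median of -0.34. Isl1, a factor of bipolar cells that is shared with amacrine and ganglion cells, was at 32.9 FPKM on day 1 and 20.8 on day 5. Cabp5, a calcium-binding protein, was at 55.7 and 33.9 FPKM, and Pcp2, of rod bipolar cells, at 218 and 149. Car8, at 13.9 and 7.43 FPKM, had the largest difference of the list, -0.82. Ganglion cell genes leaned the other way, with 14 of 18 above 0 and a median of 0.17: Thy1, a surface glycoprotein, was at 75.3 and 93.5 FPKM, Sncg, a synuclein, at 82.8 and 105, and Nefh, the heavy neurofilament, at 23.7 and 31.1. Amacrine and horizontal cell lists had medians of -0.08 and -0.09.

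**Figure D4:**
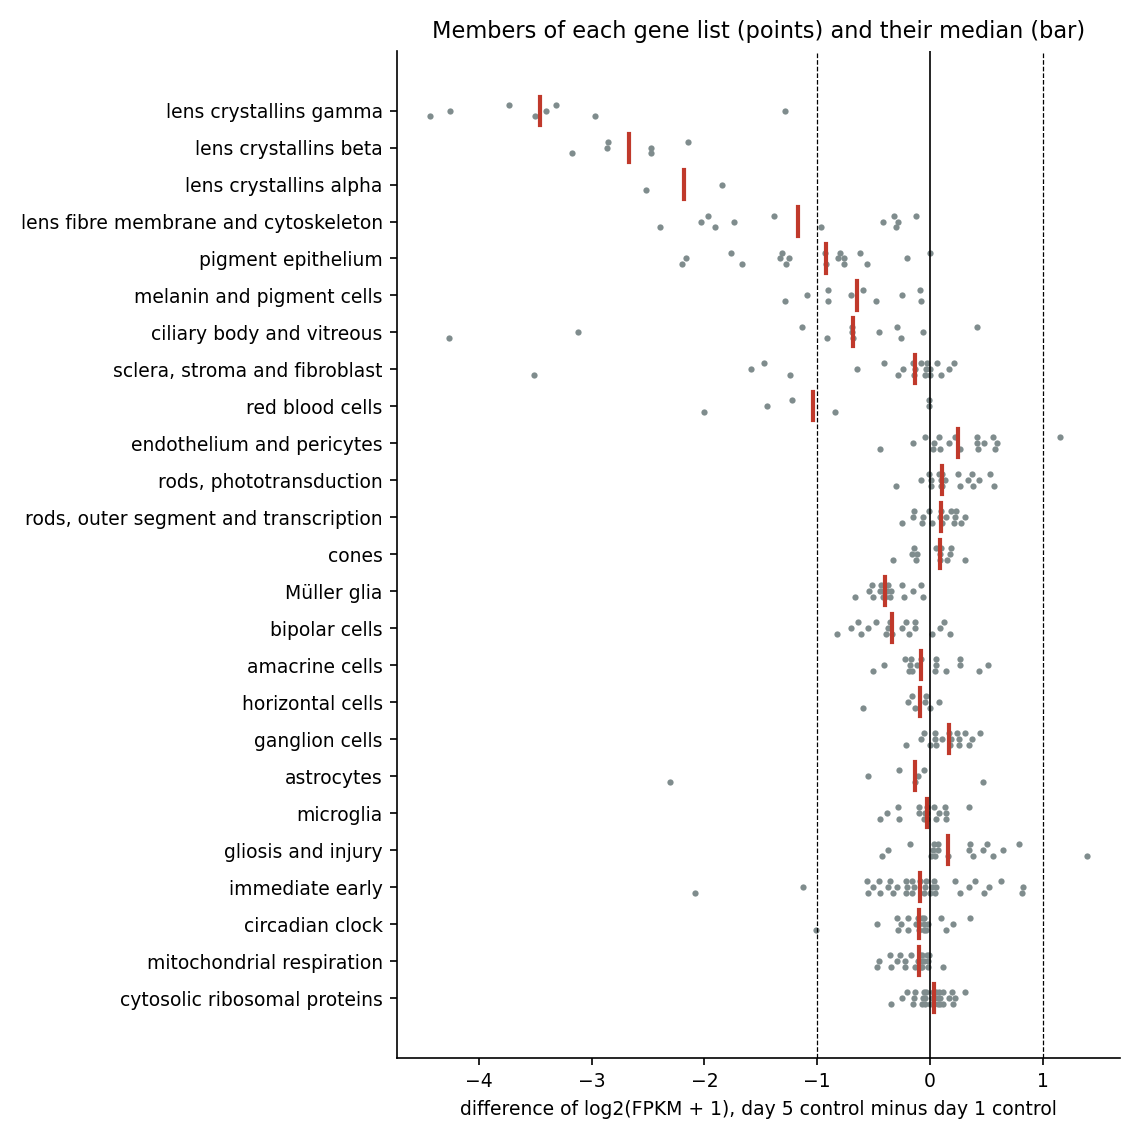
Difference of log2(FPKM + 1), day 5 control minus day 1 control, for every measured member of 25 gene lists (points) with the median of each list (bar); the dashed lines mark a difference of 1. The crystallin lists have medians from -3.45 to -2.18, while each list of a retinal neuron or of Müller glia has its median between -0.40 and 0.17.

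The difference between the 2 control libraries also went with the base composition of the transcript. Across 8539 genes with a transcript in GENCODE M1 (97.4% of those at 5 FPKM or more), the difference and the GC content of the longest coding transcript had a Spearman correlation of 0.48, given as a description. In the 2135 genes lowest in GC, up to 45.9%, the median difference was -0.21, and in the 2135 highest in GC, from 55.4%, it was 0.06. Transcript length went with the difference less closely, with a correlation of 0.17. When the running median over genes of like GC was subtracted, an alternative added after the data were seen, 52 genes were lower and 5 higher, and all of these were among those called without it. Only 62 of the 76 genes called without it have a GC value, and the rest were left out whatever their difference. The Müller glia list then had a median of -0.36 with 18 of 19 below 0, the bipolar list -0.26 with 15 of 18, and the rod lists 0.12.

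**Figure D5:**
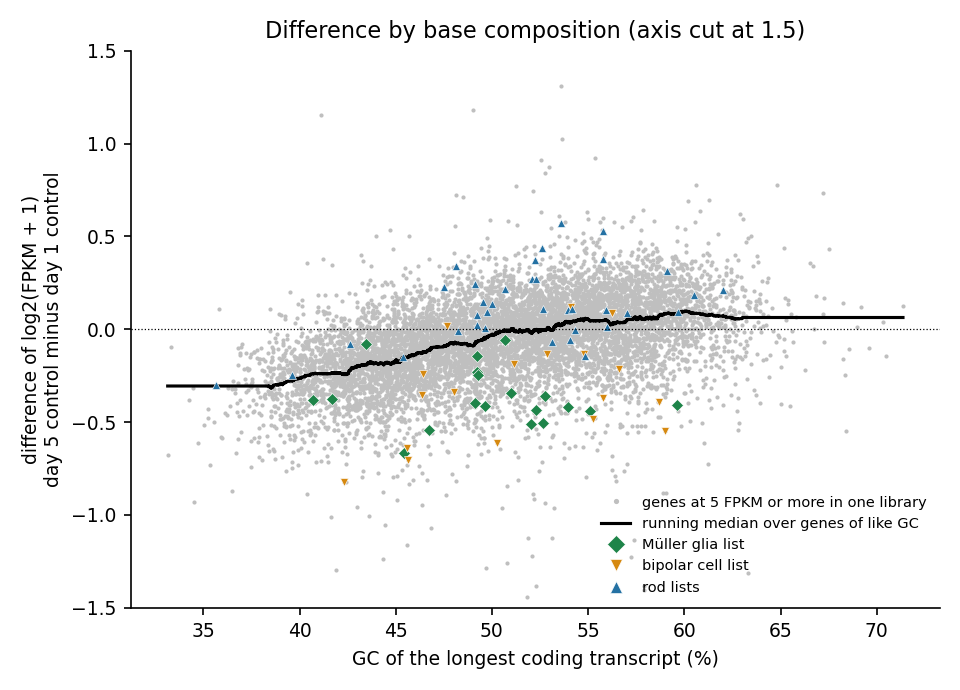
Difference of log2(FPKM + 1), day 5 control minus day 1 control (y axis), against the GC content of the longest coding transcript in percent (x axis), for genes at 5 FPKM or more in either library and for 3 cell type lists; the line is the running median over genes of like GC, and 39 genes lie beyond the axis. The line climbs from below 0 at low GC to just above 0 at high GC, and the Müller glia points lie below it except for 1.

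Among 35 immediate early genes, 17 of which reached 5 FPKM, 2 were called, both lower on day 5, against 0.752% of all genes called lower: Fos was at 28.1 FPKM on day 1 and 12.4 on day 5, and Egr1 at 36.0 and 7.75. Both are transcription factors induced within minutes by activity or handling. Fos was at 89.6 FPKM in the day 1 DTA library and 38.6 in the day 5 DTA library. Egr1 was at 133 FPKM in the day 5 DTA library, above both controls, and has no value in the day 1 DTA file used here. Atf3, a stress-induced factor, was at 2.30 and 3.76 FPKM in the controls, and Dusp1, a phosphatase of stress kinases, at 17.1 and 11.3. Over the whole list 21 of 35 were below 0, with a median of -0.09. Of the 17 at 5 FPKM or more, 16 were below 0, with a median of -0.29. Over all genes at that level 60.7% were below 0 and the median was -0.06.

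Glial reaction genes were at low levels in both controls and leaned upward. Of 19 measured genes of the gliosis list 16 had a difference above 0, with a median of 0.16 and none called. Only 3 of the 19 reached 5 FPKM, with a median of 0.07 and 1 of them below 0. The lowest difference of the list was that of Cd44, -0.43, with 2.64 FPKM on day 1 and 1.71 on day 5. Edn2, an endothelin that stressed photoreceptors produce, was at 1.24 FPKM on day 1 and 4.88 on day 5, just under the 5 FPKM that a call needs, and at 79.4 FPKM in the day 5 DTA library. Under either other scaling of the day 5 library it passed that level and was called higher, with differences of 1.44 and 1.45. Gfap, the intermediate filament of reactive glia and of astrocytes, was at 4.66 and 6.85 FPKM in the controls, and at 20.7 and 68.5 in the day 1 and day 5 DTA libraries. Serpina3n, a protease inhibitor of reactive astrocytes, was at 1.47 and 3.27 FPKM in the controls, and at 10.8 and 107 in the DTA libraries. The day 5 control was thus below the day 5 DTA library for Edn2, Gfap and Serpina3n, and Edn2 has no value in the day 1 DTA file used here.

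Clock genes were close between the libraries except for 1. Rorb, a nuclear receptor of photoreceptor development and the clock, was called lower by a narrow margin, and its difference was -0.96 and -0.94 under other scalings of the day 5 library and -0.77 with the GC trend removed. Per1, a core clock gene, was at 22.6 and 29.3 FPKM, and Dbp, a clock output gene, at 84.5 and 74.0. Of 21 measured clock genes 17 were below 0, with a median of -0.10. Mitochondrial respiration genes were below 0 in 21 of 22 cases with a median of -0.10, which is near the -0.06 over all genes, and 18 of 30 cytosolic ribosomal protein genes were above 0 with a median of 0.03.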

How the data were processed

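Total RNA of whole retina was extracted with Sepazol and made into Illumina mRNA-seq libraries, per the labels' protocols. The authors deposited FPKM per gene with lower and upper bounds and a status, per the file headers. Cufflinks 2.1.1, CASAVA 1.8.2, bcl2fastq 1.8.4 and the build mm9 are listed, without roles, per the submitters' processing notes. The sources used here give neither an aligner nor an annotation. FPKM is scaled to the whole library, so a change in abundant rod transcripts moves all other values.

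From these values, FPKM was summed over the loci of a symbol, lines with status FAIL (25 and 7) or HIDATA (1 each) were read as missing, and the difference of log2(FPKM + 1) was taken with Python 3.11.15, pandas 2.3.3 and numpy 2.4.6. Folds are given where both values reach 1 FPKM. With 1 library per group no test was made. Named are the 25 lowest and the highest called genes, called list members with up to 8 further ones at 1 FPKM or more, the 25 most abundant genes and a few fixed names, while clone names are only counted. Some genes that this rule takes are not reported here. The members and the 40 lists (605 measured genes) were chosen with earlier results of these data known. GC and coding sequences come from GENCODE M1 and coding sequences were aligned with Biopython 1.88. The size rule was tested on simulated data. Alternatives were another pseudocount, floor, size or scaling, stricter handling of loci and intervals, and removal of the GC trend.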

Additional observations from a re-analysis of the deposited data

How the results depend on the processing

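No result changed direction among the called genes under any of the 14 alternatives. The counts of genes higher and lower were 4 and 38 with a pseudocount of 5, 16 and 102 with a floor of 1 FPKM and also with no floor, 40 and 220 at a size of 1.5-fold, 3 and 29 at a difference of 2, and 80 and 160 over all loci and symbols with small RNAs and sex chromosomes included. With a floor of 10 FPKM 5 genes were higher, and with the GC trend removed 5 were higher. In the last case genes with no GC value were left out. The split moved from 86.8% of calls lower to 66.7% over all loci and symbols. The lens median was -1.08 with a pseudocount of 5, and the pigment epithelium and melanin median -1.52 with a pseudocount of 0.1 and -0.43 with 5. Medians of the Müller glia, bipolar and rod lists kept their sign under the 8 alternatives that can move a median. A median is taken as moved where it shifts by at least 0.1 and by more than 1.5 times. Scaling day 5 by 1.04 or 1.05 moved the median of all genes from -0.06 to -0.01 and 0.01, and with either scaling the medians of the glycolysis, heat shock, housekeeping, interferon, microglia and light responsive lists, all within 0.05 of 0, changed sign. Among the named genes, calls were lost by 17 with a pseudocount of 5, 14 with a floor of 10 FPKM, 25 at a difference of 2 and 4 with the GC trend removed (Rorb, Anxa1, Timp3 and Hdc). Rorb and Anxa1 also lost their calls, and Edn2 and Rmrp gained one, under either scaling, and Bc1 lost its call where intervals must not overlap. No paired analysis was possible because each group has 1 library, and for the same reason no replicate could be left out. Low levels rest on fewer fragments in the day 5 library (34.9 M) than in the day 1 library (72.3 M).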
